A study of Mus musculus with 16 samples.

Results

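Ppara, Cpt1a, Cpt2, Acadm, Ehhadh, Bdh1 and Pdk4 are 7 genes of hepatic fatty acid oxidation, ketone body production and fuel choice that belong to the programme of the nuclear receptor PPAR alpha. They were chosen by symbol from the table of gene counts, which holds 41079 genes, and all 7 were found there and passed the filter on low counts. Bulk RNA was sequenced from the livers of 16 mice that carried floxed Gcgr alleles, in which loxP sites flank exons of the glucagon receptor gene, on the C57BL/6J background. LKO mice also carried Albumin-Cre, a recombinase driven by the albumin promoter and thus active in hepatocytes, whereas CRE- controls lacked it. There were 4 male CRE-, 4 male LKO, 4 female CRE- and 4 female LKO animals, all 20 to 22 months old. The comparisons ask whether loss of the hepatic glucagon receptor altered these genes in each sex. The table holds 33268424 to 56488920 reads on genes for each liver. Levels are given as CPM, the count scaled by the total of the library and by TMM, a trimmed mean over genes, and levels of different genes are compared only as CPM per kilobase of exon.

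During fasting the liver takes up fatty acids, oxidises them and exports ketone bodies to other organs, and glucagon promotes this state by raising cyclic AMP in hepatocytes. PPAR alpha is the receptor that senses fatty acids and, as a heterodimer with a retinoid X receptor, activates the genes of fatty acid transport, oxidation and ketogenesis. Entry of long-chain fatty acids into mitochondria through the carnitine shuttle is blocked by malonyl-CoA, and pyruvate dehydrogenase kinases turn the cell from glucose toward fat.

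The targeted gene was measured first. In replicates 1 to 4, Gcgr was at 190.4, 193, 127 and 189.6 CPM in male CRE-, 116, 136, 129.9 and 160.3 CPM in male LKO, 162, 208, 201 and 180 CPM in female CRE- and 48.8, 132, 119 and 93.6 CPM in female LKO livers. All 4 female LKO livers lay below all female controls, while male CRE- replicate 3 lay among the male LKO livers, so in males the count of Gcgr does not separate the genotypes. The log2 fold change was -0.93 in females (adjusted p = 0.0443) and -0.37 in males (adjusted p = 0.671) by the quasi-likelihood test of edgeR after Benjamini-Hochberg adjustment. The female call was lost when any female library other than LKO replicate 2 was left out, with adjusted p-values from 0.0519 to 0.136 by the same edgeR test and adjustment. It was also lost with upper-quartile scaling, with either other filter on low counts or with each sex fitted alone, at adjusted p-values of 0.0506 to 0.132 by the same edgeR test and adjustment. The count covers the whole gene, and reads from exons outside the floxed segment are included in it.

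Several libraries stood apart. The lowest sample quality weights from limma-voom, which are lower the more a library departs from its group over all genes, were 0.216 for female LKO replicate 1, 0.296 for male CRE- replicate 3, 0.5403 for female CRE- replicate 4 and 0.545 for female LKO replicate 4. The 12 hepatocyte markers, of which Alb was the most abundant and none was at 0 in any library, summed to 53140, 103400, 100100 and 74690 CPM in female LKO replicates 1 to 4, against 123900 to 149100 CPM in female controls and 73900 to 112100 CPM in males. The 12 macrophage and Kupffer cell markers, led by Cd5l, summed to 4247 CPM in female LKO replicate 1 and 2623 CPM in replicate 3, with no other library above 1578 CPM. The 9 neutrophil markers, led by S100a9, summed to 657 CPM in female LKO replicate 4. The 7 skeletal muscle markers, led by Acta1, exceeded 30 CPM in male LKO replicates 3 and 4 and female CRE- replicate 4. In bulk liver, fewer hepatocytes and less of an RNA per hepatocyte cannot be told apart.

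None of the 7 genes passed the threshold of 0.05 on the adjusted p in either sex. By the quasi-likelihood test of edgeR after Benjamini-Hochberg adjustment, 0 of 7 differed in male LKO livers, where 0.454% of the 16742 genes tested did, and 0 of 7 in female LKO livers, where 4.24% did. At an unadjusted p under 0.05 there were 2 of 7 in males (Ppara and Pdk4), against 9.53% of all genes tested, and 1 of 7 in females (Cpt2), against 21.4%. DESeq2 and limma-voom with sample quality weights also called 0 of 7 in each sex. At an unadjusted p under 0.05, DESeq2 gave Ppara, Cpt1a and Pdk4 in males and Cpt2 in females, and limma-voom gave 0 in males and Cpt2 in females. In no sex did LKO and control values of any of the 7 genes separate fully, whereas the groups did not overlap for 6.49% of genes in males and 11.6% in females. The median log2 fold change over the 7 genes was 0.22 in males and -0.47 in females, beside -0.0078 and 0.035 over all genes tested.

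**Figure D1:**
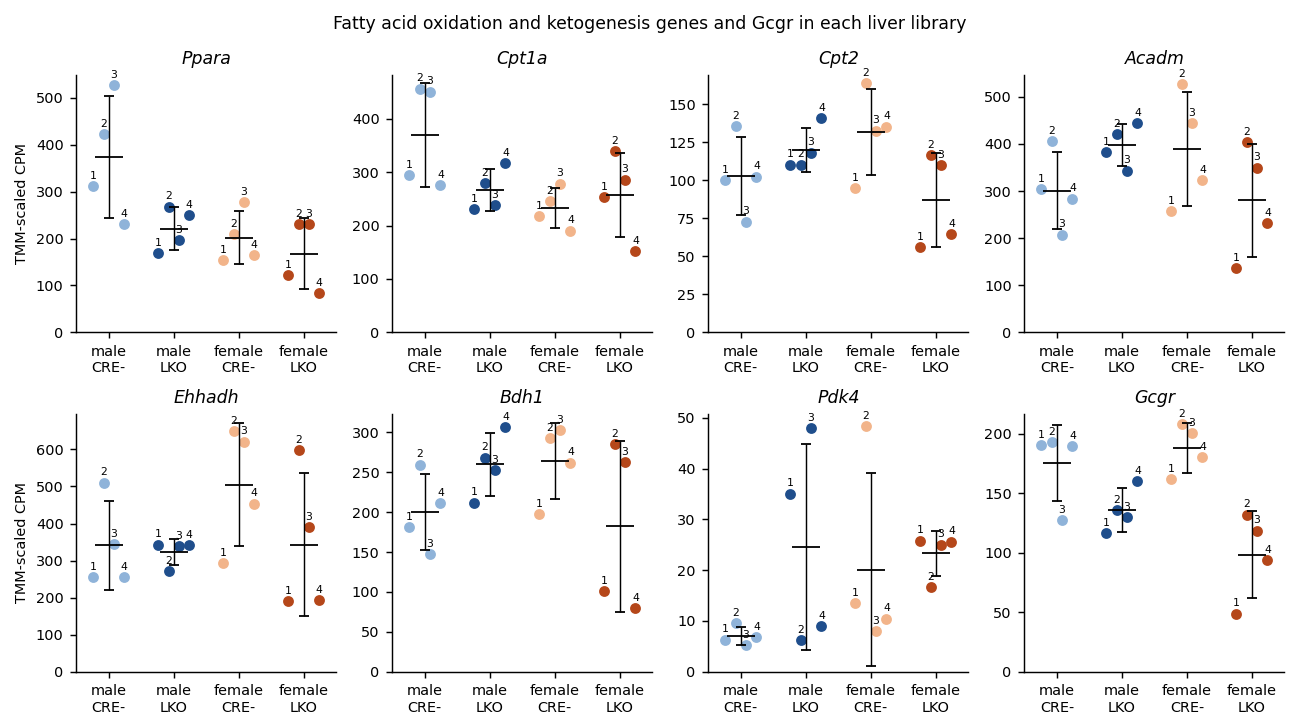
TMM-scaled CPM of the 7 genes and of the targeted gene Gcgr (vertical axes, from 0) in the 4 livers of each group (horizontal axis). Points are single livers labelled with their replicate number, and bars are the mean and SD (n = 4). LKO and control livers overlap in both sexes for each of the 7 genes. Female LKO replicates 1 and 4 lie lowest in their group for Gcgr and for all of the 7 genes but Pdk4.

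Levels of the 7 genes were ranked per kilobase of exon. Averaged over the 4 group means, Acadm was at 166 CPM per kilobase and Ehhadh at 125, followed by Bdh1 at 62.1, Cpt1a at 55.9, Cpt2 at 46.96, Ppara at 23.1 and Pdk4 at 5.43 CPM per kilobase. Ppara has 10433 bp of exon in the annotation and Acadm 2062 bp.

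Ppara encodes the receptor itself and is placed on chromosome 15, in GRCm39 coordinates at 85619112 to 85691052. In replicates 1 to 4 it was at 312, 423, 528 and 230.1 CPM in male CRE- and 169, 268, 197 and 250.5 CPM in male LKO livers. Female CRE- livers had 154, 209, 278 and 164 CPM and female LKO livers 122, 231, 232 and 84.2 CPM. Replicates 2 and 3 were the highest male controls, and the lowest male control, replicate 4, lay below male LKO replicates 2 and 4. Among the females, LKO replicates 1 and 4 were the lowest of all 16 livers, and LKO replicates 2 and 3 lay within the range of the controls. Male controls averaged 373 ± 129.9 CPM and male LKO livers 221 ± 45.9 CPM (SD, n = 4 each), and the log2 fold change was -0.76 (SE 0.33, 95% interval -1.45 to -0.065). The adjusted p was 0.463 by the quasi-likelihood test of edgeR after Benjamini-Hochberg adjustment (unadjusted 0.0339), and a two-sided exact test over all 70 ways to assign the labels gave p = 0.0857, where 0.0286 is the smallest it can give. Without male CRE- replicate 3, the control with the highest level and a low quality weight, the log2 fold change was -0.56, and it was -0.93 without the lowest, replicate 4. In females it was -0.27 (SE 0.33, 95% interval -0.96 to 0.42, adjusted p = 0.691 by the same edgeR test and adjustment), and it was -0.036 when female LKO replicate 4 was left out and -0.47 when female LKO replicate 3 was.

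Cpt1a encodes the liver form of the outer-membrane carnitine palmitoyltransferase, the malonyl-CoA-sensitive entry step of the carnitine shuttle, on chromosome 19 from 3372328 to 3435735. Replicates 1 to 4 had 294, 456, 451 and 275 CPM in male CRE- and 231, 279.5, 238 and 317 CPM in male LKO livers. The corresponding values were 218, 246, 278 and 191 CPM in female CRE- and 254, 339, 286 and 152 CPM in female LKO livers. As for Ppara, male CRE- replicates 2 and 3 were the highest of all livers and female LKO replicate 4 the lowest. Male LKO replicates 2 and 4 lay within the range of the male controls, and the female groups overlapped. The log2 fold change was -0.47 in males (SE 0.24, 95% interval -0.98 to 0.042, adjusted p = 0.568 by the quasi-likelihood test of edgeR after Benjamini-Hochberg adjustment). In females it was 0.15 (SE 0.24, adjusted p = 0.785 by the same edgeR test and adjustment), and it was -0.016 when the highest of that group, female LKO replicate 2, was left out and 0.34 when the lowest, replicate 4, was. Leaving out CRE- replicate 2 or 4 gave -0.35 and -0.59 in males.

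Cpt2 encodes the inner-membrane enzyme that completes the carnitine shuttle, on chromosome 4 from 107761179 to 107780786. In males it was at 99.9, 136, 72.8 and 102 CPM in CRE- replicates 1 to 4 and 110.4, 110.4, 118 and 141 CPM in LKO replicates 1 to 4. Female CRE- livers had 94.9, 164, 133 and 135 CPM and female LKO livers 56.3, 117, 110.1 and 64.4 CPM. Among males, control replicate 2 lay within the LKO range and the other 3 controls lay below every LKO liver. Female LKO replicates 1 and 4 were the lowest of all 16 livers, whereas LKO replicates 2 and 3 exceeded the lowest female control. Female controls averaged 132 ± 28.4 CPM and female LKO livers 86.8 ± 30.9 CPM (SD, n = 4 each), and the log2 fold change was -0.60 (SE 0.25, 95% interval -1.13 to -0.073). The adjusted p was 0.17 by the quasi-likelihood test of edgeR after Benjamini-Hochberg adjustment (unadjusted 0.0282), and the exact permutation p was 0.114. The female estimate was -0.42 without female LKO replicate 1, -0.47 without replicate 4 and -0.78 without replicate 2. The male value was 0.22 (SE 0.25, adjusted p = 0.81 by the same edgeR test and adjustment). With the lowest male control, CRE- replicate 3, left out it was 0.077, and with the highest, CRE- replicate 2, left out it was 0.39.

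Acadm encodes the medium-chain acyl-CoA dehydrogenase of mitochondrial beta-oxidation, on chromosome 3 from 153627990 to 153650280. Male CRE- replicates 1 to 4 had 304, 406, 207 and 284 CPM and male LKO replicates 382, 421, 343 and 444 CPM. Female CRE- replicates had 257, 528, 444 and 324 CPM and female LKO replicates 136, 404, 349.7 and 231 CPM. Among males, control replicate 2 lay within the LKO range, and the other 3 controls lay below every LKO liver. Among females, LKO replicates 1 and 4 were below all controls and LKO replicates 2 and 3 were within their range. Its log2 fold change was 0.40 in males (SE 0.30, 95% interval -0.24 to 1.05, adjusted p = 0.711) and -0.47 in females (SE 0.30, 95% interval -1.11 to 0.17, adjusted p = 0.406) by the quasi-likelihood test of edgeR after Benjamini-Hochberg adjustment. The female value was -0.22 without female LKO replicate 1 and -0.70 without replicate 2, and the male value 0.25 without male CRE- replicate 3 and 0.59 without replicate 2.

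Ehhadh encodes the bifunctional enzyme of peroxisomal beta-oxidation, a classical PPAR alpha target, on chromosome 16 from 21580035 to 21606589. Its levels were 256, 511, 343 and 255 CPM in male CRE- and 343, 270.5, 338 and 341 CPM in male LKO replicates 1 to 4. In females they were 293, 650.5, 621 and 454 CPM in CRE- and 191, 597, 391 and 194 CPM in LKO replicates 1 to 4. All male LKO livers lay within the range of the male controls. Female LKO replicates 1 and 4 were the lowest of all livers, and replicate 2 was higher than 2 of the female controls. The log2 fold change was -0.079 in males (SE 0.35, adjusted p = 0.963) and -0.56 in females (SE 0.35, 95% interval -1.30 to 0.19, adjusted p = 0.392) by the quasi-likelihood test of edgeR after Benjamini-Hochberg adjustment. The male value was 0.18 without male CRE- replicate 2, -0.20 without replicate 1 and 0.017 by limma-voom with sample quality weights. The female value was -0.33 without female LKO replicate 1 and -0.97 without replicate 2.

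Bdh1 encodes the mitochondrial enzyme that interconverts acetoacetate and beta-hydroxybutyrate, the last step in forming the main circulating ketone body, on chromosome 16 from 31241115 to 31277719. Male CRE- livers had 182, 259.6, 148 and 211 CPM and male LKO livers 212, 268, 253 and 306 CPM in replicates 1 to 4. Female CRE- livers had 198, 293, 303 and 262 CPM and female LKO livers 101, 286, 263 and 79.5 CPM. Male control replicate 2 lay within the LKO range, and the other 3 male controls lay below every male LKO liver. The 4 female LKO livers formed a high pair, replicates 2 and 3, which lay within the control range, and a low pair, replicates 1 and 4, which had the lowest levels of all 16 livers. For Bdh1 the log2 fold change was -0.53 in females (SE 0.34, 95% interval -1.25 to 0.18, adjusted p = 0.389) and 0.38 in males (SE 0.34, 95% interval -0.33 to 1.09, adjusted p = 0.758) by the quasi-likelihood test of edgeR after Benjamini-Hochberg adjustment. The female value was -0.28 when female LKO replicate 4 was left out, -0.31 when replicate 1 was and -0.84 when replicate 2 was. Leaving out male CRE- replicate 3 or 2 gave 0.24 and 0.53 in males. Female LKO replicates 1 and 4 were the lowest of their group for Ppara, Cpt1a, Cpt2, Acadm, Ehhadh and Bdh1. They also had the lowest summed hepatocyte markers of the female livers (53140 and 74690 CPM). The part of cell composition in these values was not tested.

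Pdk4 encodes the pyruvate dehydrogenase kinase that is induced in fasting, on chromosome 6 from 5483351 to 5496278, and had the fewest reads of the 7 genes, 202 to 2489 per liver. Male CRE- replicates 1 to 4 had 6.33, 9.54, 5.25 and 6.88 CPM and male LKO replicates 35.1, 6.18, 48.05 and 8.99 CPM. Female CRE- replicates had 13.6, 48.5, 7.95 and 10.5 CPM and female LKO replicates 25.9, 16.7, 25.1 and 25.6 CPM. Male LKO replicates 1 and 3 were above all male controls, whereas male LKO replicates 2 and 4 lay within the controls' range. Among female controls replicate 2 stood above all other females, and 3 of the 4 female LKO livers had close values. The male log2 fold change was 1.81 (SE 0.60, 95% interval 0.54 to 3.09), with an adjusted p of 0.294 by the quasi-likelihood test of edgeR after Benjamini-Hochberg adjustment (unadjusted 0.00822) and an exact permutation p of 0.2. The fold change estimate on the log2 scale was 1.26 without male LKO replicate 3, 1.58 without male LKO replicate 1, 2.13 without male LKO replicate 2 and 0.81 by limma-voom with sample quality weights. DESeq2 gave 1.81 with a Benjamini-Hochberg adjusted p of 0.0685, and over all alternatives the adjusted p ranged from 0.0685 (DESeq2) to 0.798 by the respective tools. In females the log2 fold change was 0.21 (SE 0.58, 95% interval -1.02 to 1.44, adjusted p = 0.881 by the quasi-likelihood test of edgeR after Benjamini-Hochberg adjustment), 1.13 without female CRE- replicate 2 and -0.055 without female CRE- replicate 3.

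Pdk4 is abundant in skeletal muscle, so muscle markers were set beside it. The 7 markers summed to 1.72, 0.979, 155 and 86.4 CPM in male LKO replicates 1 to 4 and 35.9 CPM in female CRE- replicate 4. No other library exceeded 17.3 CPM. Male LKO replicate 3 had the highest Pdk4 of the males (48.05 CPM) and the highest muscle sum of all 16 livers. Male LKO replicate 1 and female CRE- replicate 2, at 35.1 and 48.5 CPM of Pdk4, had 1.72 and 1.26 CPM of muscle markers. Male LKO replicate 4 had 86.4 CPM of muscle markers and 8.99 CPM of Pdk4, and female CRE- replicate 4 had 35.9 and 10.5 CPM. Over 16 livers the correlation of Pdk4 with the muscle sum was 0.25 (0.043 with the group means removed). It was 0.59 (0.26) with the endothelial sum and 0.40 (0.12) with the macrophage sum, and the part of muscle or of these cells in the Pdk4 levels was not tested. Without the 3 libraries above 30 CPM of muscle markers, a choice made after seeing the data, the male log2 fold change of Pdk4 was 1.55 with 2 LKO livers left (adjusted p = 0.798 by the quasi-likelihood test of edgeR after Benjamini-Hochberg adjustment).

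**Figure D2:**
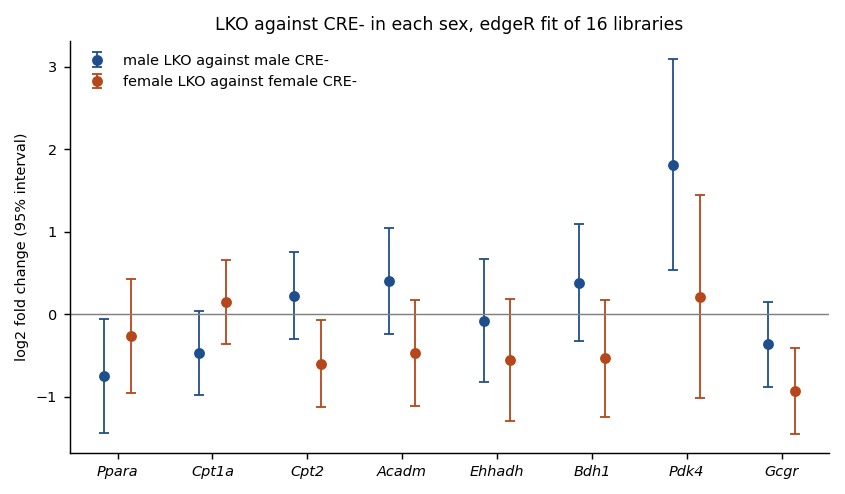
Log2 fold change of LKO against CRE- livers (vertical axis) for the 7 genes and Gcgr in males and females, from the edgeR fit of 16 libraries. Bars are 95% intervals, which leave out 0 for Ppara and Pdk4 in males and for Cpt2 and Gcgr in females before adjustment over all genes.

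The order of the 4 groups differed between genes. Ppara was highest in male CRE- livers at 373 ± 129.9 CPM (SD, n = 4), followed by male LKO at 221 ± 45.9, female CRE- at 201 ± 56.5 and female LKO at 167 ± 75.6 CPM (SD, n = 4 each). Cpt1a was also highest in male CRE- livers at 369 ± 97.9 CPM (SD, n = 4), ahead of male LKO at 267 ± 39.9, female LKO at 258 ± 78.7 and female CRE- at 233 ± 37.6 CPM (SD, n = 4 each). Cpt2, Acadm and Bdh1 had female CRE- and male LKO livers in the upper places and male CRE- above female LKO in the lower ones. Cpt2 means were 132 ± 28.4 CPM in female CRE-, 120.1 ± 14.6 in male LKO, 103 ± 25.8 in male CRE- and 86.8 ± 30.9 CPM in female LKO livers (SD, n = 4 each). Acadm means were 398 ± 44.2 CPM in male LKO, 388 ± 121 in female CRE-, 300.5 ± 81.8 in male CRE- and 280.4 ± 120.3 CPM in female LKO livers (SD, n = 4 each). Bdh1 means were 264 ± 47.5 CPM in female CRE-, 259.9 ± 39.1 in male LKO, 200.1 ± 47.5 in male CRE- and 182 ± 107 CPM in female LKO livers (SD, n = 4 each). Ehhadh was highest in female CRE- livers at 505 ± 166 CPM (SD, n = 4), followed by female LKO at 343 ± 194, male CRE- at 341 ± 120.2 and male LKO at 323 ± 35.2 CPM (SD, n = 4 each). Pdk4 was lowest in male CRE- livers at 6.999 ± 1.82 CPM (SD, n = 4), below female CRE- at 20.1 ± 19.03, female LKO at 23.3 ± 4.41 and male LKO at 24.6 ± 20.4 CPM (SD, n = 4 each). For each of the 7 genes, every group overlapped in range with the next in its order.

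The control groups were compared between the sexes, as the baseline for both genotype effects, whose controls this comparison shares. By the quasi-likelihood test of edgeR after Benjamini-Hochberg adjustment, 0 of 7 genes passed in female against male CRE- livers, where 0.92% of all genes tested did. At an unadjusted p under 0.05 there were 3 of 7 (Ppara, Cpt1a and Pdk4), against 12.7% of all genes, and DESeq2 gave the same 3 and limma-voom only Ehhadh, neither calling any after adjustment. The log2 difference, female against male, was -0.89 for Ppara (95% interval -1.58 to -0.20), -0.66 for Cpt1a (-1.18 to -0.15) and 1.52 for Pdk4 (0.26 to 2.79). Their adjusted p-values were 0.266, 0.265 and 0.298 by the quasi-likelihood test of edgeR after Benjamini-Hochberg adjustment. For Pdk4 the difference was 0.61 without female CRE- replicate 2. Cpt2, Acadm, Ehhadh and Bdh1 had differences of 0.36 to 0.56, all with intervals that include 0.

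Whether the genotype effect differed between the sexes was tested as an interaction. By the quasi-likelihood test of edgeR after Benjamini-Hochberg adjustment, 0 of 7 genes passed, and 0% of all genes tested did, where DESeq2 called 372 genes and limma-voom 29. At an unadjusted p under 0.05 there was 1 of 7 (Cpt2), against 16% of all genes. DESeq2 and limma-voom also called 0 of 7, with Cpt2 and Pdk4 under an unadjusted 0.05 by DESeq2 and Cpt2, Acadm and Bdh1 by limma-voom. For Cpt2, female minus male, the difference in log2 fold change was -0.83 (SE 0.35, 95% interval -1.57 to -0.08, adjusted p = 0.279 by the same edgeR test and adjustment), and it was -0.64 when female LKO replicate 1 was left out. Acadm and Bdh1 had differences of -0.87 (95% interval -1.78 to 0.037) and -0.91 (-1.92 to 0.092). Pdk4 had -1.60 (-3.36 to 0.16), which was -0.68 without female CRE- replicate 2. Ehhadh had -0.48, Ppara 0.49 and Cpt1a 0.62.

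Averaged over the sexes, from the same libraries, 0 of 7 genes passed by the quasi-likelihood test of edgeR after Benjamini-Hochberg adjustment, where 2.86% of all genes tested did. At an unadjusted p under 0.05 there were 2 of 7 (Ppara and Pdk4), against 15.8% of all genes. DESeq2 gave the same 2, limma-voom gave 0, and neither called any of the 7 after adjustment. The averaged log2 fold change was -0.51 for Ppara (95% interval -0.998 to -0.025) and 1.01 for Pdk4 (0.13 to 1.89). The other 5 genes lay between -0.32 for Ehhadh and -0.033 for Acadm. With single libraries left out, the average of Acadm ranged from -0.15 (without female LKO replicate 2) to 0.09 (without female LKO replicate 1), and that of Bdh1 from -0.23 (without female LKO replicate 2) to 0.045 (without female LKO replicate 4).

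The 7 genes were correlated over the 16 livers. As a description over libraries that share 4 groups, the Pearson correlation of log2 CPM was 0.90 for Ppara and Cpt1a, and 0.91 with the group means removed. It was 0.93 for Cpt2 and Acadm (0.92 with the group means removed), 0.93 for Cpt2 and Bdh1 (0.90), 0.85 for Acadm and Bdh1 (0.80), and 0.73 to 0.78 for Ehhadh with these 3 (0.80 to 0.82). Between Cpt1a and Cpt2, the consecutive enzymes of the carnitine shuttle, it was 0.17 (0.42 with the group means removed). Ppara had 0.33 to 0.48 with Cpt2, Acadm, Ehhadh and Bdh1, and Cpt1a had 0.15 to 0.35. With the group means removed these were higher, 0.74 for Ppara and Ehhadh, 0.70 for Ppara and Bdh1, 0.71 for Cpt1a and Ehhadh and 0.64 for Cpt1a and Bdh1, and with Cpt2 and Acadm 0.49 and 0.50 for Ppara and 0.42 and 0.38 for Cpt1a. Pdk4 had -0.60 with Ppara (-0.31 with the group means removed), -0.48 with Cpt1a (-0.23), and between -0.10 and 0.071 with Cpt2, Acadm, Ehhadh and Bdh1 (-0.12 to 0.12).

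The same correlations were taken with summed markers of cell types. With the hepatocyte sum they were 0.70 for Ehhadh, 0.67 for Cpt2, 0.65 for Bdh1, 0.52 for Acadm, 0.39 for Ppara, 0.13 for Cpt1a and -0.26 for Pdk4. With the group means removed they were 0.62, 0.62, 0.68, 0.57, 0.52, 0.36 and -0.16 in that order. With the neutrophil sum they were -0.74 for Bdh1, -0.66 for Cpt2, -0.62 for Ehhadh, -0.57 for Acadm, -0.55 for Ppara, -0.41 for Cpt1a and 0.11 for Pdk4. With the group means removed, the neutrophil correlation was -0.90 for Cpt1a, -0.88 for Ppara, -0.75 for Ehhadh, -0.60 for Bdh1, -0.43 for Cpt2, -0.32 for Acadm and 0.11 for Pdk4. With the macrophage sum, Ppara had -0.70 (-0.58 with the group means removed), Cpt1a -0.51 (-0.52), and Cpt2, Acadm, Ehhadh and Bdh1 between -0.43 and -0.36 (-0.48 to -0.15). Pdk4 differed in sign from these 6 in its correlation with each of the 3 sums over the 16 livers, with 0.40 (0.12) for macrophages. With the cholangiocyte, T and NK cell and endothelial sums, Ppara had -0.60 (-0.37), -0.58 (-0.47) and -0.52 (-0.028), Cpt1a -0.47 (-0.36), -0.53 (-0.50) and -0.31 (0.19), and Pdk4 0.37 (0.01), 0.20 (-0.032) and 0.59 (0.26). The part of these cells in the levels was not tested.

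Among the 13078 other genes with a mean of at least 1 CPM, those most like each of the 7 over the 16 livers were named by the same correlation. For Ppara they were Tlr5 (0.95), Clmn (0.93) and P2ry1 (0.92), and for Cpt1a they were Ppara (0.90), Scarb2 (0.87) and Tlr5 (0.86). Cpt2 was followed most closely by Suclg1 (0.96), a subunit of succinyl-CoA ligase, Uqcrc2 (0.95), a subunit of respiratory complex III, and Eci1 (0.95), a mitochondrial enoyl-CoA isomerase. Acadm was closest to Tfam (0.97), the mitochondrial transcription factor, Ghitm (0.95) and Pex3 (0.95), a peroxisome assembly factor. Ehhadh had lower maxima, with Fbxl4 at 0.86 and the peroxisomal thioesterase Acot4 at 0.86. Bdh1 was closest to Ugt3a2 (0.95), Eci1 (0.94) and Bbox1 (0.94), which makes carnitine. Pdk4 had the lowest maxima, 0.80 for Mmp11, 0.79 for Calml4 and 0.77 for Enc1.

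The promoters of the 7 genes were searched for AGGTCA, the hexamer recognised by many nuclear receptors, on both strands. RefSeq promoters of GRCm38.p6, from 250 bases before to 50 after each start, were matched by symbol for all 7 genes, 8 promoters in all, and each sequence was placed on GRCm39 by an exact match. The hexamer was present in 2 of the 8, those of Cpt1a and Acadm, and in 16.3% of the 32851 promoters of the same length. The direct repeat of the hexamer with any 1 base between was in 0 of the 8 and in 13 of the 32851. A window of 60 bases that holds each match is given 5′ to 3′ on the strand of the gene. The match is in capitals and reads as the reverse complement of the hexamer in both. For Acadm the match begins at -249 from the start, so the window begins at the edge of the promoter and is not centred on the match. These windows are shown because they are those of the 7 genes that hold the hexamer.
Cpt1a promoter, plus strand, chr19:3373180-3373239: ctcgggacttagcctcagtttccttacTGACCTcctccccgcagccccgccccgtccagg
Acadm promoter, minus strand, chr3:153650471-153650530: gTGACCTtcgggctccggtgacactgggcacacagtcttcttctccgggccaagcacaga
A match describes the letters of the window, and binding was not analysed here.

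The other genes of the pathway were taken from 8 lists with 112 genes, of which 111 were tested and Cpt1b was not. By the quasi-likelihood test of edgeR after Benjamini-Hochberg adjustment, 3 of them differed in male LKO livers, 2 higher and 1 lower, where 0.454% of all genes tested did, and 9 in female LKO livers, 2 higher and 7 lower, where 4.24% did. In males, 68 of the 111 genes had a log2 fold change above 0 and 43 below 0, where 50.9% of all genes tested were below 0, and the median was 0.14. In females, 77 were below 0 and the median was -0.29, where 46.9% of all genes tested were below 0. At an unadjusted p under 0.05 there were 16 of the 111 in males and 31 in females, where 9.53% and 21.4% of all genes tested were under it. The number that passed in females was 4, 2 and 2 without CRE- replicates 2, 3 and 4, and 3 without LKO replicate 1 and 6 without LKO replicate 4. The number in males was 1 without CRE- replicate 1 and 2 without either CRE- replicate 2 or CRE- replicate 3. Without the 3 libraries with muscle markers, both counts were 0 by edgeR, with 2 male LKO and 3 female CRE- livers left. With each sex fitted alone, 3 passed in females, Acsl5, Acacb and Cyp4a31. Among the genes below, upper-quartile scaling also ended the female calls for Bdh2, Dlat and Hacl1, no filter those for Dlat, Hacl1 and Slc27a5, and limma-voom the male call for Fgf21.

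The genes that act beside Cpt1a and Cpt2 in uptake, activation and the shuttle numbered 13. By edgeR 0 passed in males and 2 were lower in females, where 0.454% and 4.24% of all genes tested passed. At an unadjusted p under 0.05 there were 2 in males and 3 in females, against 9.53% and 21.4% of all genes tested. Of the 3 in females, 1 was higher and 2 were lower. DESeq2 and limma-voom each called 0 in males and 2 in females. Acsl5, an acyl-CoA synthetase, was at 648, 736, 732 and 890.3 CPM in female CRE- and 252, 396, 364 and 298 CPM in female LKO replicates 1 to 4. All female LKO livers lay below all female controls, and the log2 fold change was -1.20 (SE 0.20, adjusted p = 0.00646 by the quasi-likelihood test of edgeR after Benjamini-Hochberg adjustment) and passed with each single female library left out. The transport protein Slc27a5 was also lower in each female LKO liver than in each control (log2 fold change -0.77, adjusted p = 0.0335 by the quasi-likelihood test of edgeR after Benjamini-Hochberg adjustment), but its adjusted p by that test was 0.0569 to 0.0928 when any female library but CRE- replicate 1 or LKO replicate 2 was left out. The male log2 fold changes were -0.46 for Acsl5 and -0.37 for Slc27a5, neither of which passed, and -0.59 for Acsl3, which had the smallest male p of the list. The highest levels of the list belonged to the fatty acid binding protein Fabp1, at 6291 ± 1890 CPM per kilobase in female CRE- and 3399 ± 2671 in female LKO livers, and the transporter Slc27a2, at 427 ± 62.6 and 345 ± 169 CPM per kilobase (SD, n = 4 each).

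Of 16 genes of mitochondrial beta-oxidation, the pathway of Acadm, 16 had a log2 fold change above 0 in males (median 0.18) and 14 were below 0 in females (median -0.47). None of the 16 passed in either sex by edgeR. At an unadjusted p under 0.05 there were 1 in males and 5 in females, against 9.53% and 21.4% of all genes tested. Of the 5 in females, 1 was higher and 4 were lower. DESeq2 called 0 in males and 1 in females, and limma-voom 0 and 0. These genes were measured in the same livers, so their shared sign is not a count of independent changes. Etfb, an electron transfer flavoprotein subunit, had 348, 437, 409 and 582 CPM in female CRE- and 218, 352, 298 and 265 CPM in female LKO replicates 1 to 4, and LKO replicate 2 exceeded the lowest control. Its female log2 fold change was -0.65 (adjusted p = 0.0984 by the quasi-likelihood test of edgeR after Benjamini-Hochberg adjustment, and 0.0486 to 0.346 over the alternatives). The isomerase Eci2 had the smallest male p (log2 fold change 0.79, adjusted p = 0.345 by the same edgeR test and adjustment), and the thiolase Acaa2 the highest level, 636 ± 119 CPM per kilobase in female CRE- and 467 ± 152 in female LKO livers (SD, n = 4 each).

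For 19 genes of peroxisomal oxidation, the pathway of Ehhadh, the median log2 fold change was 0.18 in males and -0.50 in females. At an unadjusted p under 0.05 there were 2 in males and 3 in females, against 9.53% and 21.4% of all genes tested. DESeq2 and limma-voom called 0 and 0 in males, and 2 and 3 in females. By edgeR 0 passed in males and 1 was lower in females, where 0.454% and 4.24% of all genes tested passed. The gene was Hacl1, a lyase of alpha-oxidation, at 605, 892, 636 and 621 CPM in female CRE- and 263, 409.6, 395 and 258 CPM in female LKO replicates 1 to 4. Male CRE- livers had 203, 334, 126 and 234 CPM and male LKO livers 396, 216, 358 and 300.3 CPM. All female controls were above all other livers, and the female log2 fold change was -1.05 (SE 0.28, adjusted p = 0.0445 by the quasi-likelihood test of edgeR after Benjamini-Hochberg adjustment). The call was lost when any female library but LKO replicate 2 was left out, with adjusted p-values of 0.0551 to 0.155 by the same edgeR test and adjustment. It was also lost with the replicate number as a block. Acox3, an acyl-CoA oxidase, had the smallest male p (log2 fold change -0.42, adjusted p = 0.254 by the same edgeR test and adjustment). The highest levels were those of the thiolases Scp2, at 739 ± 181 CPM per kilobase in female CRE- and 429 ± 122 in female LKO livers, and Acaa1b, at 618 ± 270.3 and 357 ± 279.6 CPM per kilobase (SD, n = 4 each). In females Scp2 was also called lower by DESeq2 (adjusted p = 0.0394) and by limma-voom (adjusted p = 0.0327), and it did not pass by edgeR (log2 fold change -0.79, adjusted p = 0.0977 by the quasi-likelihood test), each after Benjamini-Hochberg adjustment. It passed by that edgeR test with the replicate number as a block (adjusted p = 0.0297) and without female LKO replicate 2 (0.0466).

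Among 8 other genes of ketone body synthesis, export and use, 0 passed in males and 1 was lower in females by edgeR. Of all genes tested, 0.454% and 4.24% passed. At an unadjusted p under 0.05 there were 0 in males and 5 in females, where 9.53% and 21.4% of all genes were. Of the 5 in females, 1 was higher and 4 were lower. DESeq2 and limma-voom each called 0 in males and 1 in females. Bdh2, a cytosolic dehydrogenase, was at 11.4, 22.2, 24.4 and 22.0 CPM in female CRE- and 1.41, 11.3, 6.95 and 1.62 CPM in female LKO replicates 1 to 4, with LKO replicates 1 and 4 lowest, as for Bdh1, and all LKO livers below all controls. Its female log2 fold change was -1.91 (SE 0.50, adjusted p = 0.0427 by the quasi-likelihood test of edgeR after Benjamini-Hochberg adjustment), and the adjusted p by that test was 0.0569 to 0.115 when any female library but CRE- replicate 1 or LKO replicate 2 was left out. The thiolase Acat1 was at 142 ± 32.9 CPM per kilobase in female CRE- and 88.2 ± 39.3 in female LKO livers (SD, n = 4 each).

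Of the 11 genes of the pyruvate dehydrogenase complex and its regulators besides Pdk4, 0 passed in males and 1 was lower in females by edgeR. Of all genes tested, 0.454% and 4.24% passed. At an unadjusted p under 0.05 there were 0 in males and 5 in females, where 9.53% and 21.4% of all genes were. Of the 5 in females, 2 were higher and 3 were lower. DESeq2 and limma-voom each called 0 in males and 1 in females. Dlat, the acetyltransferase subunit, was at 70.2, 89.9, 109 and 104 CPM in female CRE- and 48.9, 70.8, 59.2 and 51.7 CPM in female LKO replicates 1 to 4, where LKO replicate 2 lay just above the lowest control. The log2 fold change was -0.70 (SE 0.19, adjusted p = 0.0486 by the quasi-likelihood test of edgeR after Benjamini-Hochberg adjustment), and the adjusted p by that test was 0.0691 to 0.144 when any female library but CRE- replicate 1 or LKO replicate 2 was left out. Pdhb and Dld had the highest levels, 111 ± 25.4 and 53.98 ± 3.69 CPM per kilobase in male LKO livers (SD, n = 4 each).

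Of the 4 genes that set malonyl-CoA, the inhibitor of Cpt1a, 1 was lower in males and 2 in females by edgeR. Of all genes tested, 0.454% passed in males and 4.24% in females by edgeR. DESeq2 called 2 in males (Acacb and Fasn) and 2 in females, limma-voom 1 and 2. Acacb, the acetyl-CoA carboxylase bound to mitochondria, was lower in every LKO liver than in every control of its sex, with log2 fold changes of -1.92 in males (adjusted p = 0.00323) and -1.31 in females (adjusted p = 0.0201) by the quasi-likelihood test of edgeR after Benjamini-Hochberg adjustment. The female adjusted p was 0.0569 without CRE- replicate 3, 0.063 without CRE- replicate 4 and 0.052 without LKO replicate 1, by the same edgeR test and adjustment. Fasn, which consumes malonyl-CoA, had log2 fold changes of -1.19 in males (adjusted p = 0.127) and -1.45 in females (adjusted p = 0.0231) by the quasi-likelihood test of edgeR after Benjamini-Hochberg adjustment. In males DESeq2 gave -1.22 for Fasn with a Benjamini-Hochberg adjusted p of 0.0127, and the range over the alternatives was 0.0127 to 0.757. The female call for Fasn was lost without CRE- replicate 3 (adjusted p = 0.0669), CRE- replicate 4 (0.0691) or LKO replicate 1 (0.0655) by the same edgeR test and adjustment. Mlycd, which degrades malonyl-CoA, was at 27.8, 32.03, 32.4 and 23.8 CPM per kilobase in male CRE-, male LKO, female CRE- and female LKO livers and did not pass in either sex.

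Of 22 other target genes of the receptor encoded by Ppara, 2 were higher in each sex and none was lower by edgeR. At an unadjusted p under 0.05, 6 were higher and 0 lower in males, and 3 higher and 2 lower in females. Of all genes tested, 9.53% in males and 21.4% in females were under it, and 0.454% and 4.24% passed after adjustment by edgeR. DESeq2 called 2 in males and 3 in females and limma-voom 1 and 3, both adding Ephx2 in females. The median log2 fold changes were 0.37 in males and 0.11 in females. The 2 genes that passed by edgeR were the same in the sexes, and Ephx2 (female log2 fold change -0.77) is named after its values were seen. Cyp4a31, a fatty acid omega-hydroxylase, was higher in every LKO liver than in every control of its sex, with log2 fold changes of 2.19 in males (adjusted p = 0.0114, and 0.0542 without male CRE- replicate 1) and 2.25 in females (adjusted p = 0.00646) by the quasi-likelihood test of edgeR after Benjamini-Hochberg adjustment. The male call for Cyp4a31 was also lost with the replicate number as a block. The hormone Fgf21 had log2 fold changes of 5.21 in males (adjusted p = 0.0114) and 4.04 in females (adjusted p = 0.0194) by the quasi-likelihood test of edgeR after Benjamini-Hochberg adjustment, where female LKO replicate 4 lay within the controls and the value was 2.57 without female LKO replicate 3. The call for Fgf21 was lost without male CRE- replicate 1, 2 or 3 (adjusted p = 0.07, 0.0633 and 0.0688) and without female CRE- replicate 2, 3 or 4 (adjusted p = 0.0749, 0.0578 and 0.065), by the same edgeR test and adjustment. Cyp4a14 had the highest mean level of the list over the groups, at 134, 391, 277 and 392 CPM per kilobase in male CRE-, male LKO, female CRE- and female LKO livers (means, n = 4 each). Retsat was next, at 214, 306, 186 and 232 CPM per kilobase in the same order (means, n = 4 each), and neither passed in either sex.

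None of 18 regulators and coregulators of PPAR alpha passed in either sex by edgeR (3 in males and 2 in females at an unadjusted p under 0.05, against 9.53% and 21.4% of all genes tested), and DESeq2 called 1 in males and 0 in females, limma-voom 0 and 0. Nr0b2, the corepressor SHP, was at 25.1, 16.1, 9.72 and 26.1 CPM in male CRE- and 72.3, 32.0, 66.04 and 31.98 CPM in male LKO replicates 1 to 4. Female CRE- replicates had 23.8, 37.5, 41.5 and 32.7 CPM and female LKO replicates 17.3, 7.704, 21.4 and 26.6 CPM. All male LKO livers exceeded all male controls, whereas 3 of 4 female LKO livers lay below all female controls. The log2 fold change was 1.39 in males (adjusted p = 0.153) and -0.89 in females (adjusted p = 0.181), and the difference between the sexes was -2.29 (adjusted p = 0.14) by the quasi-likelihood test of edgeR after Benjamini-Hochberg adjustment. In males DESeq2 gave a Benjamini-Hochberg adjusted p of 0.0292 for Nr0b2, and the range over the alternatives was 0.0292 to 0.597. For the difference between the sexes in Nr0b2, DESeq2 gave -2.25 with an adjusted p of 0.00718 after Benjamini-Hochberg adjustment, past the threshold, which edgeR's quasi-likelihood test did not pass. Rxra, the partner of Ppara, was at 78.3 ± 10.8, 72.9 ± 15.7, 69.4 ± 8.15 and 69.2 ± 14.9 CPM per kilobase in male CRE-, male LKO, female CRE- and female LKO livers (SD, n = 4 each). In the same order of groups Ppara was at 35.8 ± 12.4, 21.2 ± 4.404, 19.3 ± 5.41 and 16.03 ± 7.24 CPM per kilobase, lower than Rxra in each. Creb3l3, a liver transcription factor, had the highest level of the list, 111 ± 25.9 CPM per kilobase in male LKO livers (SD, n = 4).

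**Figure D3:**
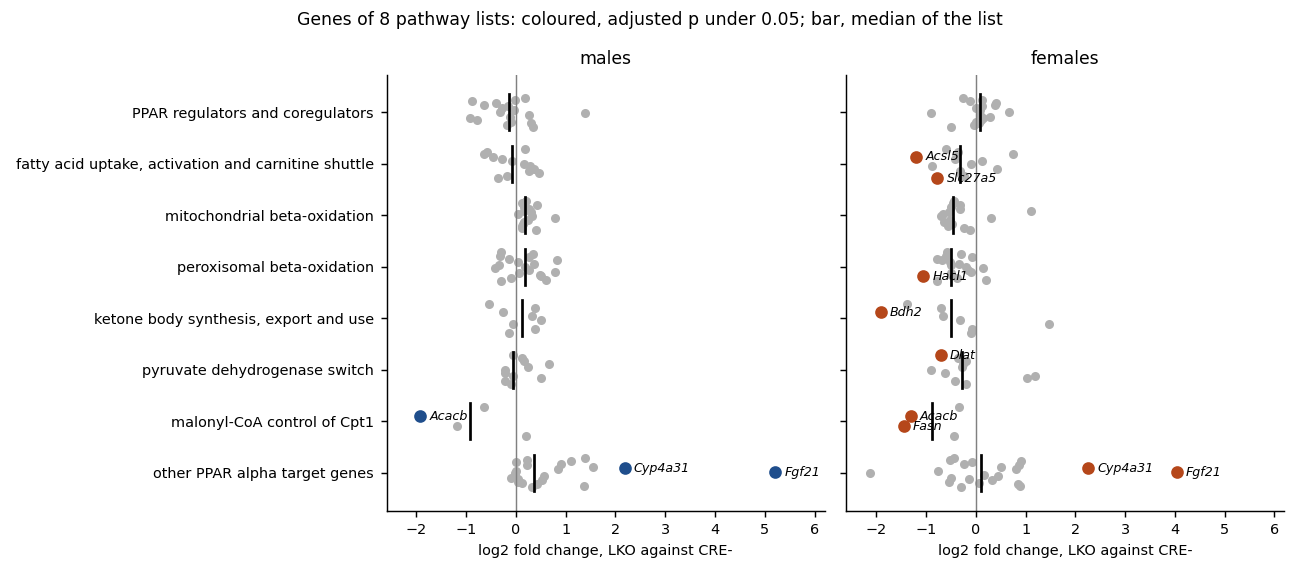
Log2 fold change (horizontal axes) of 111 genes in 8 pathway lists (vertical axis) in male and female LKO against CRE- livers. Coloured, named points passed an adjusted p of 0.05 by edgeR, grey points did not, and the black bar is the median of the list, above 0 in males and below 0 in females for mitochondrial and peroxisomal beta-oxidation.

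Markers of other cells varied with some of these values. In females 11 of 12 hepatocyte markers had a log2 fold change below 0 (median -0.63), where 46.9% of all genes tested did. Above 0 in females were 12 of 12 macrophage markers (median 1.46) and 8 of 8 tested neutrophil markers (median 3.37). By edgeR 0 hepatocyte, 2 macrophage and 3 neutrophil markers passed in females, where 4.24% of all genes tested did. In males 6 of 12 hepatocyte markers and 8 of 8 neutrophil markers were below 0, where 50.9% of all genes tested were. Above 0 in males were 10 of 12 macrophage markers, and none of the 3 lists had a marker that passed in males. The neutrophil sum was 143, 45.8, 76.4 and 657 CPM in female LKO replicates 1 to 4 and 17.1 to 39.2 CPM in female CRE- livers. In males it was 98.2, 21.4, 18.2 and 196 CPM in CRE- replicates 1 to 4 and 12.6 to 27.4 CPM in LKO livers. Over all libraries, adipocyte markers, led by Plin4, summed to 14.4 to 143 CPM, B and plasma cell markers, led by Ighm, to 158 to 816 CPM, and T and NK cell markers, led by Nkg7, to 7.12 to 33.8 CPM. Endothelial markers, led by Stab2, summed to 198 to 443 CPM, stellate cell and fibroblast markers, led by Dcn, to 296 to 659 CPM, and cholangiocyte and progenitor markers, led by Spp1, to 44.3 to 157 CPM. No marker was at 0 in all 16 livers, and the part of these cells in the values of the 7 genes was not tested.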

How the data were processed

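Liver RNA of 16 mice was analysed, 4 in each of 4 groups of sex and genotype. The deposited table holds raw counts of reads per gene, which the authors made from paired-end reads aligned with STAR 2.7.1a to GRCm39 and counted on exons with featureCounts 2.0.6. The 2 ends of a pair were counted as separate reads, so a count is not a number of fragments. Totals were 33268424 to 56488920 counts per library.

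Genes were kept by filterByExpr with a minimum count of 10, which left 16742 of 41079, and scaled by TMM. All groups were fitted together with edgeR 4.0.16 in R 4.3.3 and tested by quasi-likelihood, with Benjamini-Hochberg adjustment over the 16742 genes and a threshold of 0.05. Intervals (95%) and standard errors are those of the fit. The comparisons were LKO against CRE- in males and in females, their difference, their average, and female against male controls. Single genes were also tested by exact two-sided permutation of the 8 libraries of a sex, and its 14 p-values, 7 genes in 2 sexes, are unadjusted. Correlations use log2 CPM with a prior count of 2.

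Named genes were the 7 genes, Gcgr, and from each pathway list the genes that passed in males, females or the average, those with the 2 highest levels per kilobase and the smallest p in each sex, most of which are described. For each of the 7 genes 2 or 3 of the 3 closest by correlation were added, and for each marker list its most abundant gene. The 7 genes and all lists were chosen with earlier results of these data known. Alternatives were DESeq2 1.42.0, limma 3.58.1 (voom with sample quality weights), RLE and upper-quartile scaling, no filter, at least 10 counts in every library, each sex fitted alone, the replicate number as a block, and each library left out. After seeing the data, fits without 3 libraries with skeletal muscle markers and without 2 of lowest quality weight were added.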

Additional observations from a re-analysis of the deposited data

Results flagged for a closer look

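In 188 groups of 4 livers, the highest or lowest liver was tested for standing apart from the other 3, which chance alone gives in about 1 in 20 groups, and 18 did. Among the 7 genes, Ehhadh was at 270 CPM in male LKO replicate 2 (others 338 to 343 CPM), and Pdk4 was at 48.5 CPM in female CRE- replicate 2 (others 7.95 to 13.6 CPM) and 16.7 CPM in female LKO replicate 2 (others 25.1 to 25.9 CPM). The targeted gene Gcgr was at 127 CPM in male CRE- replicate 3, where the others had 190 to 193 CPM.

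Among pathway genes, male LKO replicate 1 stood apart with 295 CPM of Acsl5, 1510 CPM of Scp2, 20.5 CPM of Acox3 and 113 CPM of Fgf21. Fgf21 was at 2.49 CPM in male CRE- replicate 4. Acaa2 was at 688 CPM in female CRE- replicate 1, and Hacl1 at 892 CPM in female CRE- replicate 2.

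Summed markers stood apart for hepatocytes in male CRE- replicate 1 (82800 CPM), macrophages in male LKO replicate 1 (1390 CPM), and neutrophils in female CRE- replicate 1 (39.2 CPM) and female LKO replicate 4 (657 CPM). Female CRE- replicate 1 also had a low endothelial sum (269 CPM) and a high cholangiocyte sum (120 CPM), and female LKO replicate 2 had 17.3 CPM of muscle markers.

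The mean neutrophil sums of LKO livers and controls lay in opposite order in the sexes. The mean was 17.7 CPM in male LKO livers against 83.5 CPM in male controls, and 231 CPM in female LKO livers against 24.1 CPM in female controls. Single livers carried much of both: female LKO replicate 4 had 657 CPM and the other 3 had 45.8 to 143 CPM. Male CRE- replicates 1 and 4 had 98.2 and 196 CPM, and replicates 2 and 3, at 21.4 and 18.2 CPM, lay within the male LKO range. The difference between the sexes in this sum was not tested.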

How the results depend on the processing

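In every fit run, 0 of the 7 genes passed in any of the 5 comparisons. Single genes were followed through the alternatives for the 7 genes in the 5 comparisons and, in 1 or both sexes, for Gcgr and for those pathway genes that passed or had the smallest p of their list, and not for the other genes named. Where they were followed, directions held except as follows. The averaged log2 fold change of Acadm was 0.0089 by limma-voom, 0.0058 with upper-quartile scaling, 0.019 without the 2 libraries of lowest quality weight and -0.15 to 0.09 with single libraries left out. That of Bdh1 was 0.021 by limma-voom and -0.23 to 0.045 with single libraries left out. The male value of Ehhadh was 0.017 by limma-voom and -0.20 to 0.18 with single libraries left out, and that of Dlat 0.053 by limma-voom, 0.044 without the 3 libraries with muscle markers and -0.15 to 0.11 with single libraries left out. Female values with single libraries left out were -0.016 to 0.34 for Cpt1a and -0.055 to 1.13 for Pdk4.

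The count of pathway genes in males (3) was 5 by DESeq2, 0 without the muscle-marker libraries and 1 to 3 with single libraries left out. In females (9) it was 3 with each sex fitted alone, 0 without the muscle-marker libraries and 2 to 12 with single libraries left out. For the sex difference (0) it was 2 by DESeq2, Nr0b2 and Hacl1. For the average (6) it was 12 by limma-voom, 11 with the replicate number as a block, 3 without the muscle-marker libraries and 5 to 10 with single libraries left out. Between the control groups (3) it was 6 by DESeq2 and 5 without the 2 libraries of lowest weight.

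Of all genes tested, 76 passed in males, 336 by DESeq2, 148 by limma-voom, 21 without the muscle-marker libraries and 26 to 49 with single libraries left out. In females, 710 passed, 1795 by DESeq2, 1976 by limma-voom, 119 with each sex alone, 31 and 361 without the muscle-marker and the lowest-weight libraries, and 87 to 1310 with single libraries left out. For the sex difference, 0 passed, 372 by DESeq2, 29 by limma-voom, 12 without a filter, 2 with the block and 0 to 14 with single libraries left out. For the average, 478 passed, 1009 by DESeq2, 857 by limma-voom, 118 without the muscle-marker libraries and 299 to 598 with single libraries left out. Between the control groups, 154 passed, 499 by DESeq2, 329 by limma-voom, 78 with at least 10 counts in every library, 64 without the muscle-marker libraries and 68 to 149 with single libraries left out. Fits with fewer libraries have less power, and otherwise the cause was not tested.

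With the replicate number as a block, the male call for Cyp4a31 (adjusted p = 0.0592) and the female call for Hacl1 (0.0522) were lost by the quasi-likelihood test of edgeR after Benjamini-Hochberg adjustment. Female calls for Pdk1, Scp2, Aacs, Acat1 and Ephx2 were gained, with adjusted p-values of 0.0297 to 0.0486 by the same edgeR test and adjustment. The count of female calls was 13 rather than 9 for pathway genes and 1012 rather than 710 for all genes. The female log2 fold change of Fgf21 was 2.90 with the block and 4.04 without it. The correlation of CRE- and LKO livers of the same number, over genes with group means removed, was 0.17, 0.17, 0.14 and -0.013 in males and 0.17, 0.10, 0.12 and 0.028 in females, and the LKO liver most like a control had its number for 4 of the 8 controls. Precision rests on 4 livers a group, whose spread exceeds the counting error even of Pdk4, with 202 to 2489 reads per liver.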
